A study of Mus musculus with 12 samples.

Results

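Cpa3 and Mcpt4 encode proteases that mast cells store in their granules. They are 2 of the 7318 genes in the deposited count table and were described across all 12 libraries of the study. Both genes were chosen on their counts in these same libraries, so their own levels and differences are given as a description, with no test. Counts were made from mammary cells of 4-week-old female FVB/N mice that carried MMTV-Wnt1 and MMTV-iFgfr1, 6 h after an intraperitoneal dose of AP20187 or of vehicle. MMTV is a viral promoter active in mammary epithelium, and AP20187 is a dimerizer that switches on iFGFR1, an inducible form of FGF receptor 1. All groups carried both transgenes, the vehicle groups included, and with no AP20187 group that lacked iFGFR1, an effect of the compound and an effect of the receptor cannot be told apart. The 4 groups were RNA with AP20187, ribosome footprints with AP20187, RNA with vehicle and ribosome footprints with vehicle, each with 3 libraries. Whether 1 mouse or a pool of mice gave each library is not stated, so a p-value here measures only how these samples spread, in part perhaps for technical reasons.

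Mast cells are tissue-resident leukocytes that sit beside vessels, nerves and fat in connective tissue, the mammary gland's stroma included. Their granules hold proteases bound to heparin and serglycin, and release them together with histamine when the cell is triggered. Cpa3 is a zinc carboxypeptidase that trims residues from the C-terminus of peptides. Mcpt4 is a chymase of connective tissue mast cells and in the mouse is regarded as the closest functional counterpart of human chymase. Cma1 encodes a further serine protease of the chymase locus, and Tpsb2 encodes a tryptase that is active as a tetramer.

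The cells are labelled as mammary epithelial cells and were enriched by short spins after collagenase digestion, with no sort stated. Luminal epithelial markers were abundant in RNA, their 7 listed genes summing to 6966 to 9356 CPM (counts scaled to a common library size) with AP20187 and to 4102 to 5115 CPM with vehicle. Markers of other cell types were counted too: 5 fibroblast genes summed to 1218 to 1639 CPM with AP20187 and to 3279 to 5740 CPM with vehicle. The gene pair is part of a list of 13 mast cell granule proteases, of which 4 are in the table: Cpa3, Mcpt4, Cma1 and Tpsb2. As the list holds the pair itself, it is no check of the pair's label. The receptors that define a mast cell, such as Kit, Fcer1a and Ms4a2, were not analysed here, nor were Hdc and Gata2. In unsorted cells, fewer mast cells and less RNA per mast cell cannot be told apart.

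In GRCm38, Cpa3 (ENSMUSG00000001865.2) lies on the minus strand at chr3:20215620-20242181 and has up to 11 exons. The miRNA gene Mir7007 lies within it on the same strand, so a read over that stretch could belong to either. Mcpt4 (ENSMUSG00000061068.7) lies on the minus strand at chr14:56059629-56062313 and has 5 exons. Cma1 (ENSMUSG00000022225.7) lies on the same strand of chromosome 14, with 114953 bases between it and Mcpt4, while Tpsb2 (ENSMUSG00000033825.10) is on chromosome 17. Of the 30-base stretches of the longest transcript, 0% in Cpa3 and 12.9% in Mcpt4 also occur in a transcript of another gene, mainly Cma2 and Mcpt9. Part of the reads of Mcpt4, above all the short footprints, could thus be lost or assigned to a relative. The share was 10.9% in Cma1 and 0.794% in Tpsb2, whose relative is the other tryptase gene Tpsab1.

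The 250 bases upstream of 3 of these genes are shown because the 3 genes were low and high in the same RNA libraries and are known from the same cell type. The sequences are those of RefSeq on GRCm38.p6, on the strand of the gene, and end next to the start that RefSeq annotates, which for Mcpt4 lies within the GENCODE gene model. Capitals mark GATAA, the core bound by GATA factors, and TGTGGT, the core bound by RUNX factors, each searched on both strands, and TATAAA on the strand shown. A match on the opposite strand appears as ACCACA or TTATC. Tpsb2 is named only.
Cpa3, chr3:20242182-20242431: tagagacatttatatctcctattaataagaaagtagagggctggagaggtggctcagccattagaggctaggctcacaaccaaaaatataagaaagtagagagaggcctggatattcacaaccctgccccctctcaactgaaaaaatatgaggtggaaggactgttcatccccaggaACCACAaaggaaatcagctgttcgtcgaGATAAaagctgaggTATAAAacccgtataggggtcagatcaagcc
Mcpt4, chr14:56062311-56062560: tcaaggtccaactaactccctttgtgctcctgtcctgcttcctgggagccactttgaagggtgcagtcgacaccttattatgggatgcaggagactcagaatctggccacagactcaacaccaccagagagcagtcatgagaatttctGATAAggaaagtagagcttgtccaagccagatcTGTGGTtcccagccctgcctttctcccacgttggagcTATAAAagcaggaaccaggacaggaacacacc
Cma1, chr14:55944676-55944925: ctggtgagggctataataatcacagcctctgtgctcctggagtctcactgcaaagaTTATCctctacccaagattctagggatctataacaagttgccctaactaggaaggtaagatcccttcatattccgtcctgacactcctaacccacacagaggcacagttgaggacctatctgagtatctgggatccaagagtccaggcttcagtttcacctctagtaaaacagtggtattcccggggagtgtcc

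All 3 windows hold GATAA: at 45 to 41 bases upstream in Cpa3, at 102 to 98 in Mcpt4 and, on the opposite strand, at 194 to 190 in Cma1. GATAA occurs in 22.5% of the 32536 RefSeq windows of this length. TGTGGT is at 73 to 68 bases in Cpa3, on the opposite strand, and at 69 to 64 bases in Mcpt4, against 14% of all windows. TATAAA is at 31 to 26 bases in Cpa3 and at 32 to 27 bases in Mcpt4, against 7.55% of all windows. The E-box pattern CANNTG, which reads the same on both strands, is found at 2 places in Cpa3, 0 in Mcpt4 and 1 in Cma1, and in 66.2% of all windows. TGTGGT was picked after the sequences had been read. None of the motifs overlap in these windows, and a match describes letters, not binding.

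Cpa3 RNA was scarce in every AP20187 library and higher in every vehicle library. It had 0.386, 0.537 and 0.236 CPM in AP20187 libraries 1, 2 and 3, against 3.86, 4.65 and 12.7 CPM in vehicle libraries 1, 2 and 3. The groups did not overlap, and vehicle library 3 stood above the other 2 vehicle libraries. Lack of overlap is given here and below as a description, and its share over all genes is not given. In RNA it also held for genes with far smaller log2 fold changes, such as Ctsl (-0.42) and Ctsd (0.35). The mean was 0.387 ± 0.150 CPM with AP20187 and 7.08 ± 4.90 CPM with vehicle (SD, n = 3 each). These levels rest on 22 to 90 counts per AP20187 library and 605 to 1224 per vehicle library. The log2 fold change was -4.18 ± 0.58 (SE), an 18.1-fold lower level with AP20187. Only 5 of the 7314 genes compared in RNA had a lower log2 fold change, and the median over all of them was 0.01.

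Mcpt4 RNA had nearly the same values. It stood at 0.292, 0.861 and 0.279 CPM in AP20187 libraries 1, 2 and 3, against 3.86, 5.92 and 13.5 CPM in vehicle libraries 1, 2 and 3. Library 2 was the highest of the AP20187 libraries and library 3 the highest of the vehicle libraries, with no overlap between the groups. The mean was 0.477 ± 0.332 CPM with AP20187 and 7.74 ± 5.05 CPM with vehicle (SD, n = 3 each), a log2 fold change of -4.02 ± 0.65 (SE), or 16.3-fold. Both genes exceeded the limit of the filter on low counts, 0.0841 CPM, in all 6 RNA libraries, so neither entered through the vehicle group alone.

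**Figure D1:**
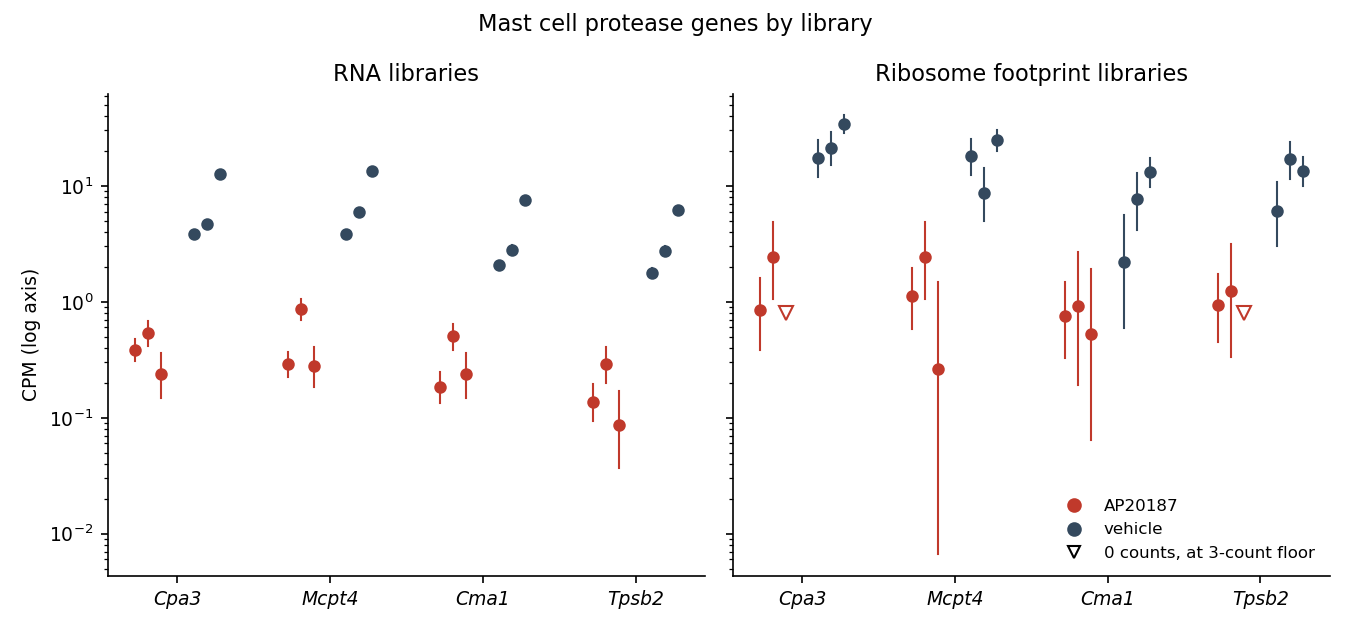
Levels of the 4 listed mast cell granule proteases in each library, in CPM on a log axis, for RNA and for footprints; points are libraries, AP20187 left of vehicle, and bars are exact 95% Poisson intervals of the counts. In both assays every AP20187 library lies below every vehicle library for each of the 4 genes. The share of all genes with such an order is not given. A library with 0 counts is drawn at its floor of 3 counts.

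Ribosome footprints, the fragments protected by translating ribosomes, showed the same order with far fewer counts. Cpa3 footprints were at 0.845, 2.45 and 0 CPM in AP20187 libraries 1, 2 and 3, from 9, 8 and 0 counts. In vehicle libraries 1, 2 and 3 they were at 17.5, 21.3 and 34.0 CPM, from 32, 39 and 130 counts. The count of 0 allows a level of up to 0.797 CPM at a floor of 3 counts. Means were 1.10 ± 1.25 CPM with AP20187 and 24.3 ± 8.66 CPM with vehicle (SD, n = 3 each), and the log2 fold change was -4.53 ± 0.85 (SE), 23.1-fold lower with AP20187. Of the 7041 genes compared in footprints, 0 had a lower log2 fold change.

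Mcpt4 footprints were at 1.13, 2.45 and 0.266 CPM in AP20187 libraries 1, 2 and 3, from 12, 8 and 1 counts. Vehicle libraries 1, 2 and 3 had 18.1, 8.73 and 24.6 CPM, from 33, 16 and 94 counts. Vehicle library 2, the lowest of its group, was still above all 3 AP20187 libraries. Means were 1.28 ± 1.10 CPM with AP20187 and 17.1 ± 7.98 CPM with vehicle (SD, n = 3 each), with a log2 fold change of -3.77 ± 0.81 (SE), or 13.6-fold. Both genes passed the filter on low footprint counts only through the vehicle group: 0 of the 3 AP20187 libraries and all 3 vehicle libraries reached its limit of 2.94 CPM, so a gene that entered this way had to differ.

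**Figure D2:**
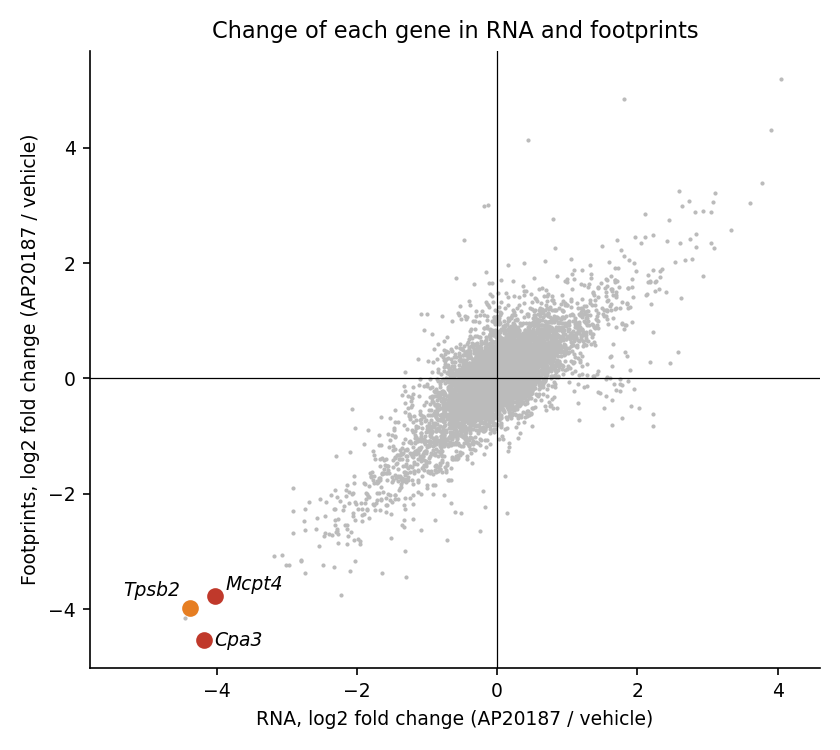
Log2 fold change (AP20187 over vehicle) of each gene in RNA, on the x axis, and in footprints, on the y axis; grey points are the genes compared in both assays, red points Cpa3 and Mcpt4, and the orange point Tpsb2. The 3 protease genes lie at the low end of both axes, at -4.02 to -4.37 in RNA and -3.77 to -4.53 in footprints.

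Both genes ranked low among the listed genes, and the vehicle libraries placed them higher in footprints than in RNA. By group mean in CPM, 2.20% of the 7318 genes lay below Cpa3 in footprints with AP20187 and 22% with vehicle, compared with 0.834% in RNA with AP20187 and 5.90% with vehicle. For Mcpt4 the shares were 2.58% in footprints with AP20187 and 15.4% with vehicle, and 0.929% in RNA with AP20187 and 6.44% with vehicle. Per kilobase of exon, RNA levels of Cpa3 were 0.255 ± 0.0991 CPM with AP20187 and 4.67 ± 3.23 CPM with vehicle (SD, n = 3 each). On that scale Mcpt4 RNA was at 0.431 ± 0.300 CPM with AP20187 and 6.99 ± 4.56 CPM with vehicle, and it lay above Cpa3 in each of the 6 RNA libraries, though by as little as 0.263 against 0.254 CPM in AP20187 library 1. In each of the 3 vehicle RNA libraries the order per kilobase ran from Mcpt4 through Cpa3 and Cma1 to Tpsb2, with Cma1 at 3.79 ± 2.72 CPM and Tpsb2 at 2.24 ± 1.45 CPM on average. The spread between vehicle libraries was larger than the gap between the group means of Mcpt4 and Cpa3, and of Cpa3 and Cma1, and all 4 genes were highest in vehicle library 3.

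The share of the pair's counts that came from Cpa3 lay near 50% in RNA. It was 57.0%, 38.4% and 45.8% in AP20187 libraries 1, 2 and 3 and 50%, 44.0% and 48.6% in vehicle libraries 1, 2 and 3, with AP20187 libraries 1 and 2 farthest apart. Pooled over a group, Cpa3 made up 47.3% with AP20187 (95% Clopper-Pearson interval 42.1 to 52.5%) and 48.0% with vehicle (46.7 to 49.3%). In footprints the pooled share was 44.7% with AP20187 (28.6 to 61.7%) and 58.4% with vehicle (53.0 to 63.7%), and the intervals overlapped. Such intervals cover counting error only.

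**Figure D3:**
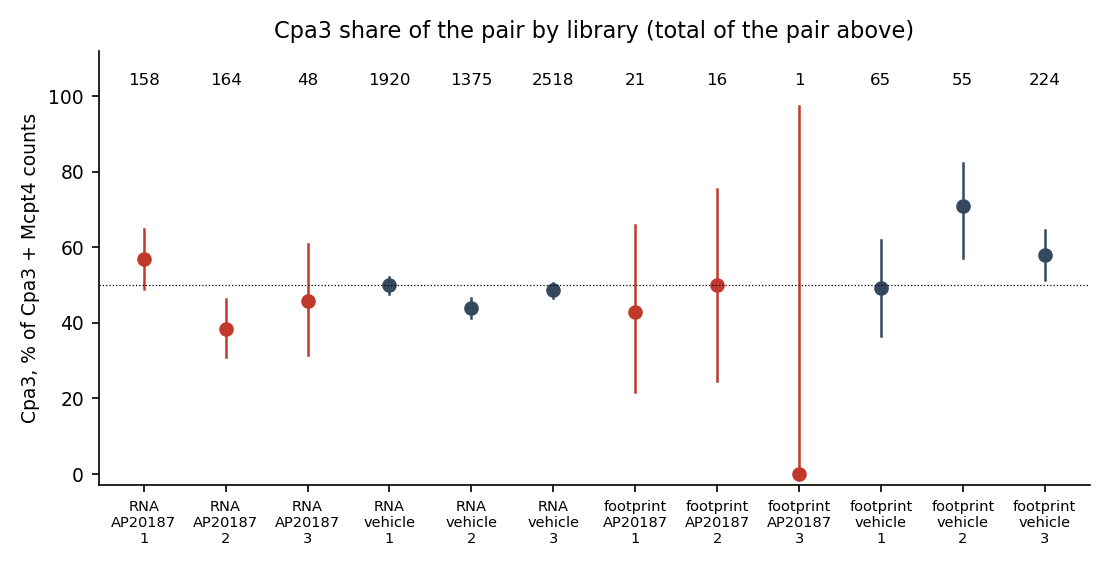
Cpa3 counts as a percentage of the summed Cpa3 and Mcpt4 counts in each library, with 95% Clopper-Pearson intervals for counting error; AP20187 libraries stand left of vehicle libraries within each assay, the dotted line marks 50% and the numbers on top are the pair's counts. RNA libraries lie between 38.4% and 57.0%, and the footprint library at 0% holds a single count of the pair.

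The variation among vehicle libraries was also shared by the proteases. RNA of Cpa3 in vehicle library 3 was 2.99 times the mean of vehicle libraries 1 and 2, and the ratio was 2.75 for Mcpt4, 3.10 for Cma1 and 2.73 for Tpsb2. The median ratio over all genes was 0.998, and 7 of 7318 genes had a higher ratio than Cpa3. In footprints, vehicle library 3 stood at 1.75 times the other two for Cpa3, 1.84 for Mcpt4, 2.66 for Cma1 and 1.16 for Tpsb2. Summed markers had ratios in RNA of 1.84 for adipocytes, 1.48 for fibroblasts, 1.27 for endothelium, 1.05 for Schwann cells, 0.946 for pericytes and smooth muscle and 0.874 for leukocytes in general. Without vehicle library 3, the log2 fold change in RNA was -3.45 for Cpa3 and -3.36 for Mcpt4.

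The other 2 listed granule proteases were tested in the same fits, edgeR's quasi-likelihood test with Benjamini-Hochberg adjustment over all genes. Both were lower in RNA with AP20187, where 13.9% of the genes tested were called lower and 12.4% higher. Tpsb2 RNA was at 0.137, 0.290 and 0.0860 CPM in AP20187 libraries 1, 2 and 3, against 1.78, 2.75 and 6.18 CPM in vehicle libraries 1, 2 and 3. The groups did not overlap, and the log2 fold change was -4.37 ± 0.66 (SE, adjusted p = 0.00685). Cma1 RNA was at 0.184, 0.503 and 0.236 CPM in AP20187 libraries 1, 2 and 3, against 2.07, 2.79 and 7.53 CPM in vehicle libraries 1, 2 and 3. These groups did not overlap either, and the log2 fold change was -3.75 ± 0.64 (SE, adjusted p = 0.00852). Both calls held when each library was left out in turn, with adjusted p of at most 0.0272 for Tpsb2 and 0.0322 for Cma1.

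Tpsb2 footprints were at 0.939, 1.23 and 0 CPM in AP20187 libraries 1, 2 and 3, against 6.02, 16.9 and 13.4 CPM in vehicle libraries 1, 2 and 3. The groups did not overlap, yet with a log2 fold change of -3.97 ± 0.95 (SE) the gene missed the threshold (edgeR adjusted p = 0.0548), where 2.54% of the genes tested were called in either direction. With the replicate number as a block, its adjusted p was 0.0371. Like the pair, Tpsb2 entered the footprint fit only through the vehicle group, with 0 AP20187 and 3 vehicle libraries at the filter's limit, so it had to differ there and neither p-value adds support. Cma1 had too few footprint counts to be tested, with 8, 3 and 2 counts in AP20187 libraries 1, 2 and 3 and 4, 14 and 50 in vehicle libraries 1, 2 and 3. Its footprint levels of 0.531 to 0.920 CPM with AP20187 and 2.19 to 13.1 CPM with vehicle did not overlap.

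Footprints relative to RNA were used as a measure of translational efficiency. Each ratio divides a footprint library by the RNA library of the same number and treatment, a match that the labels do not give. Deviations of vehicle footprint library 1 correlated at 0.053 with vehicle RNA library 1 and at 0.155 with vehicle RNA library 2. With AP20187, Cpa3 had footprint to RNA ratios of 2.19, 4.57 and 0 in libraries 1, 2 and 3, and with vehicle 4.54, 4.57 and 2.68. In the vehicle libraries between 89.4% and 97.8% of genes with counts in both assays had a lower ratio, and the median over genes was 0.924 to 0.941. The ratios of Mcpt4 were 3.87, 2.85 and 0.95 with AP20187 and 4.68, 1.47 and 1.83 with vehicle in libraries 1, 2 and 3. In vehicle libraries 1, 2 and 3, 96.2%, 74.6% and 78.5% of genes had a lower ratio than Mcpt4. These ratios use CPM not divided by length, and the coding part of the exon bases differs between genes. It was 1251 of 1517 bases in Cpa3 and 738 of 1108 in Mcpt4, so these shares do not rank translation alone. Ratios with AP20187 rest on 0 to 12 footprint counts per library. The change in translational efficiency was -0.47 ± 1.00 (SE, log2) for Cpa3 and 0.14 ± 0.97 for Mcpt4, each smaller than its own error. Tpsb2 (0.32 ± 1.04) and Cma1 (0.26 ± 1.04) did not pass the test (edgeR adjusted p = 0.995 for both). Over all 7315 genes, 0% passed in edgeR, 350 were under an unadjusted p of 0.05, and DESeq2 called 10. Leaving out single libraries moved the change for Cpa3 between -1.30 and 0.06 and for Mcpt4 between -0.52 and 0.85, so its direction was not resolved at this depth.

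Beyond the proteases, 5 further lists cover what a mast cell needs: receptors, mediator enzymes, transcription factors, granule traffic and the ligands that act on it. Of their 74 genes, 24 are in the table, and these are not restricted to mast cells. In RNA, 9 of the 24 were lower with AP20187, 5 were higher and 10 did not pass, against the 13.9% lower and 12.4% higher over all genes. Without AP20187 library 1 the counts were 4 lower and 2 higher, where 394 of all 7314 genes were lower and 388 higher. Without vehicle library 3 they were 3 lower and 1 higher, and without vehicle library 1 they were 7 lower and 1 higher. For the fits without a vehicle library, the shares of all genes called lower and higher are not given. Their counts thus cannot be set against a background. Calls over all genes varied too, from 538 to 2214 with a library left out, against 1919 in the full fit. In footprints 0 of the 24 passed in edgeR, where 8 were under an unadjusted p of 0.05 and 2.54% of all genes passed. DESeq2 called 5 of them lower and 1 higher in footprints, where it called 7.5% of all genes. With the replicate number as a block, 5 were lower and 2 higher, against 10.2% of all genes called.

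Mediator enzymes fell in RNA in 4 of 5 cases, against 13.9% of all genes, with a median log2 fold change of -1.12 over the 5. Maob, which oxidizes amines, had 10.1, 26.0 and 15.3 CPM in AP20187 libraries 1, 2 and 3, against 53.4, 48.5 and 48.2 CPM in vehicle libraries 1, 2 and 3, with no overlap (log2 fold change -1.55 ± 0.31, SE, edgeR adjusted p = 0.0127). Ptgs1, the constitutive cyclooxygenase, changed by -1.37 ± 0.30 (adjusted p = 0.0167) and Hpgds, the haematopoietic prostaglandin D synthase, by -1.12 ± 0.24 (adjusted p = 0.0153). Hexa, a subunit of a lysosomal hexosaminidase, changed by -1.02 ± 0.23 (adjusted p = 0.0167). Without AP20187 library 1, Ptgs1, Hpgds and Hexa missed the threshold (adjusted p of 0.0592, 0.0633 and 0.0577), as they did without vehicle library 3 (0.0634, 0.0751 and 0.0720). Ptgs1 also missed it without vehicle library 1 (0.0539).

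Of 12 transcription factors listed, 5 were measured, of which 2 fell and 1 rose in RNA, with a median log2 fold change of -0.05. Over all genes, 13.9% fell and 12.4% rose. Zeb2, a zinc finger repressor, had 22.7, 28.9 and 16.8 CPM in AP20187 libraries 1, 2 and 3, against 56.0, 48.2 and 84.4 CPM in vehicle libraries 1, 2 and 3, with no overlap (log2 fold change -1.46 ± 0.27, SE, edgeR adjusted p = 0.00971). Runx1, a RUNX factor, changed by -0.96 ± 0.23 (adjusted p = 0.0223), and Lmo4, a LIM domain cofactor that luminal cells also express, by 0.66 ± 0.15 (adjusted p = 0.0178). With vehicle, RNA of Runx1 averaged 205 CPM and that of Lmo4 181 CPM, and which cells it came from was not tested. Runx1 and Lmo4 missed the threshold without AP20187 library 1 (0.0661 and 0.0594), vehicle library 1 (0.0669 and 0.0545) or vehicle library 3 (0.0858 and 0.0803). Stat5a (0.16 ± 0.40) and Stat5b (-0.05 ± 0.20), which relay cytokine signals, did not pass (adjusted p of 0.794 and 0.879).

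Of 12 genes of granule maturation and exocytosis, 3 rose, 2 fell and 7 did not pass in RNA, with a median log2 fold change of 0.22. Over all genes, 12.4% rose and 13.9% fell. Ctsb, a cysteine cathepsin, had 1335, 1233 and 1176 CPM in AP20187 libraries 1, 2 and 3, against 625, 778 and 576 CPM in vehicle libraries 1, 2 and 3, with no overlap (log2 fold change 0.92 ± 0.17, SE, edgeR adjusted p = 0.00951). Ctsc, the dipeptidyl peptidase that activates granule serine proteases, changed by 0.81 ± 0.16 (adjusted p = 0.0115). Rab27b changed by 0.53 ± 0.15 (adjusted p = 0.0332) and its relative Rab27a, both GTPases of granule docking, by -1.03 ± 0.20 (adjusted p = 0.0108). Rab5a, of early endosomes, changed by -0.75 ± 0.15 (adjusted p = 0.0133). Ctsc missed the threshold without vehicle library 1 (0.0507) or 3 (0.0549), Rab5a without vehicle library 3 (0.0507), and Rab27b without AP20187 library 1 (0.0770) or 3 (0.0742) or vehicle library 1 (0.136) or 3 (0.106). Syk, the kinase downstream of the IgE receptor, had 12.1, 18.6 and 9.24 CPM in AP20187 libraries 1, 2 and 3 and 14.5, 40.9 and 29.0 CPM in vehicle libraries 1, 2 and 3, which overlapped (-1.08 ± 0.39, adjusted p = 0.0739).

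Of the 15 listed receptors and surface proteins, 2 were measured and they moved in opposite directions. Cd63, a granule membrane protein of many cells, changed by -0.46 ± 0.13 (SE, edgeR adjusted p = 0.0365) and Enpp3, an ectonucleotidase used as an activation marker, by 0.70 ± 0.18 (adjusted p = 0.0252). Cd63 missed the threshold without any 1 of AP20187 libraries 1 and 3 and vehicle libraries 1, 2 and 3 (adjusted p 0.0606 to 0.144). Enpp3 missed it without AP20187 library 1 (0.0593) or vehicle library 1 (0.0766) or 3 (0.0757). None of the 12 ligands in the list, such as stem cell factor, was analysed here.

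**Figure D4:**
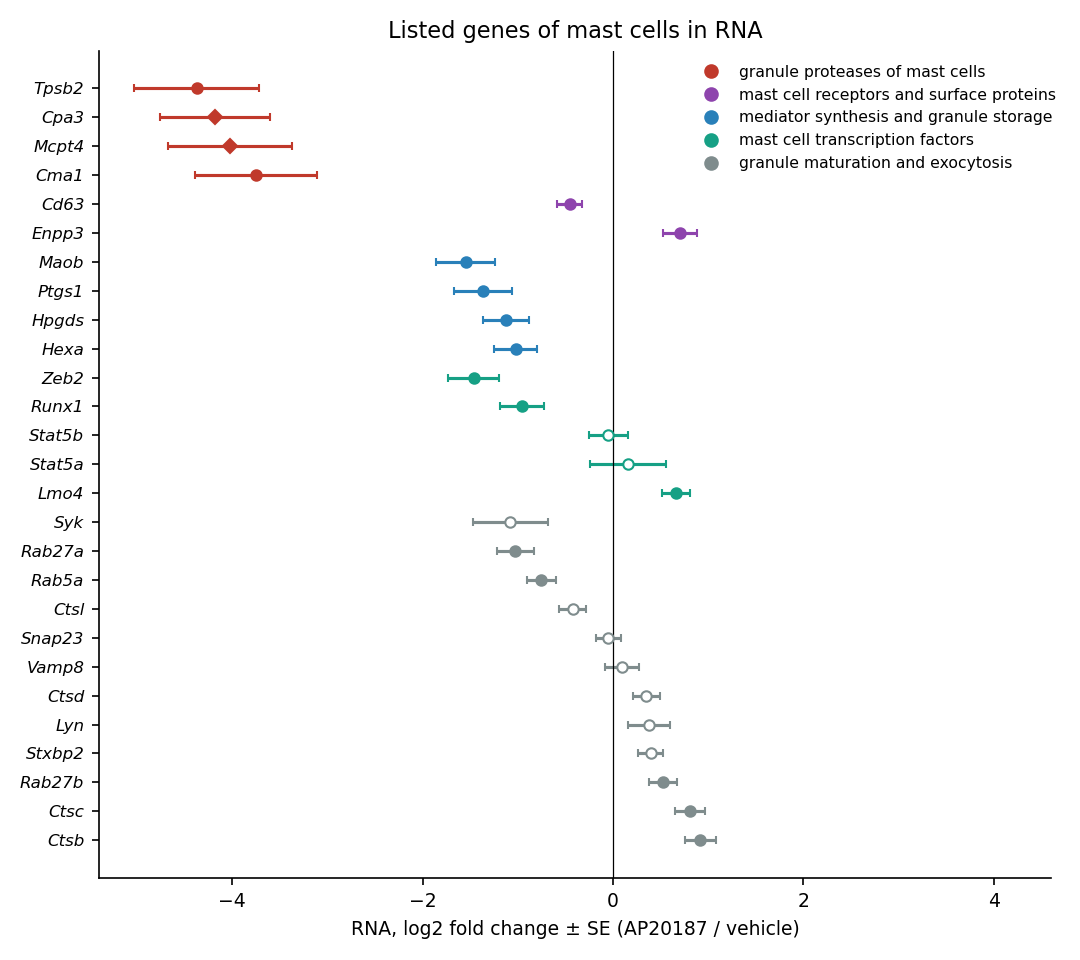
Log2 fold change in RNA (AP20187 over vehicle, bars show SE) of 27 measured genes of the mast cell lists, by list; filled circles passed the threshold, open circles did not, and diamonds are Cpa3 and Mcpt4, which were not tested. The 4 granule proteases lie between -4.37 and -3.75, below the other 23 genes shown, which lie between -1.55 and 0.92.

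Among other carboxypeptidases of the M14 family, to which Cpa3 belongs, 3 were measured. Cpd, a membrane carboxypeptidase of the secretory pathway, rose by 0.93 ± 0.28 (SE) on the log2 scale in RNA (edgeR adjusted p = 0.0423), and Cpm (0.43 ± 0.21) and Cpq (-0.21 ± 0.16) did not pass. Cpd missed the threshold without AP20187 library 1 or 2 or vehicle library 1 or 3 (adjusted p 0.0796 to 0.152). Of 8 measured substrates and inhibitors of mast cell proteases, 4 fell in RNA and 1 rose, where 13.9% of all genes fell and 12.4% rose. Without vehicle library 3, 2 of the 8 fell, in a fit whose share over all genes is not given. Fn1, the gene of fibronectin, a chymase substrate, fell by 1.495 ± 0.21 (adjusted p = 0.00625), and Lxn, an inhibitor of carboxypeptidases, rose by 1.15 ± 0.21 (adjusted p = 0.00949). Serpinb6b fell by 2.15 ± 0.41 (adjusted p = 0.0108).

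Markers of other cell types moved in RNA beside the proteases, where edgeR called 13.9% of all genes lower and 12.4% higher. All 5 measured fibroblast markers were lower with AP20187, with a median log2 fold change of -1.58. So were 4 of 4 endothelial markers (median -0.88) and 4 of 5 adipocyte markers (median -2.47), but only 2 of each without AP20187 library 1 or vehicle library 3. The fit without AP20187 library 1 called 394 of all 7314 genes lower, against 1013 in the full fit. For fits without a vehicle library, here and below, the share of all genes called in each direction is not given. Their marker counts thus have no background to be set against. Endothelial markers summed to 286 to 327 CPM with AP20187 and 531 to 717 CPM with vehicle, and adipocyte markers to 49.2 to 105 CPM with AP20187 and 266 to 517 CPM with vehicle, with no overlap in either. Of 7 Schwann cell markers 4 fell and 1 rose, and of 6 pericyte and smooth muscle markers 3 fell. Without AP20187 library 2, 5 of those 6 fell, where 1166 of all 7314 genes were called lower. Only 2 fell without AP20187 library 1 or 3, where 394 and 732 of all genes were called lower. The number was also 2 without any 1 of the vehicle libraries, and with the replicate number as a block. Of 5 pan-leukocyte markers, 0 fell and 1, Lcp1, rose in edgeR, with a median log2 fold change of -0.96 and 4 under an unadjusted p of 0.05. DESeq2 called 3 of them lower, where it called 17.4% of all genes lower. Their sum was 347 to 450 CPM with AP20187 and 185 to 376 CPM with vehicle, which overlapped, and Lcp1 alone averaged 338 CPM with AP20187 and 139 CPM with vehicle. Without vehicle library 1, 3 of these 5 fell, and without AP20187 library 2, 1 fell. Ptprc, the gene of CD45, which all leukocytes carry, was at -0.96 ± 0.38 (SE, edgeR adjusted p = 0.0957), and Coro1a (-1.09) and Rac2 (-1.43) did not pass either. Of 5 macrophage markers 0 fell in edgeR or DESeq2, with a median log2 fold change of 0.43. Of these, 1 was under an unadjusted p of 0.05: Cd14, which rose, and missed the threshold without AP20187 library 1 (adjusted p = 0.0601) or vehicle library 1 (0.0774) or 3 (0.0591). Without vehicle library 2, 3 of the 5 were higher. The part of these other cells in the protease values was not tested.

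Genes with a pattern like that of the pair were ranked over the 6 RNA libraries by Pearson's r with the mean of the standardized log2 CPM of Cpa3 and Mcpt4, as a description. Cpa3 and Mcpt4 themselves had r = 0.988. The pair, pseudogenes and genes with provisional names, such as Gm or Rik names, were left out of the ranking. The 10 most alike of the 7191 genes left were Tpsb2 (0.999), Pecam1 (0.998), Brdt (0.995), Rab13 (0.995), Hmox1 (0.994), Rftn1 (0.994), Cma1 (0.994), Des (0.993), Col6a5 (0.993) and Dync1li2 (0.993). Tpsb2 thus came first and Cma1 seventh. The 6 libraries share the difference between AP20187 and vehicle, and 848 genes reached an r of 0.9. Likeness of pattern did not mean likeness of size: Pecam1, an endothelial adhesion gene, averaged 75.6 CPM with AP20187 and 156 CPM with vehicle, a log2 fold change of -1.05, and Dync1li2, a dynein subunit gene, 154 CPM with AP20187 and 183 CPM with vehicle, at -0.24.

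Depth over the listed genes was 94513818 to 251874393 counts per RNA library and 1772969 to 11018709 per footprint library. Replicates of a group correlated at 0.959 to 0.987 in RNA and 0.875 to 0.968 in footprints (Pearson's r over genes, on log2 CPM; genes are not independent replicates). A floor of 3 counts corresponded to 0.0121 to 0.0322 CPM in RNA libraries and to 0.282 to 1.64 CPM in footprint libraries, so low levels of both proteases were resolved more finely in RNA.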

How the data were processed

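Mammary cell RNA and ribosome footprints were sequenced from glands 3 to 5, after digestion in collagenase with the elongation inhibitor cycloheximide. The authors deposited raw counts per gene for 12 libraries in a single table of 7318 genes, not normalized. The tools named in the submitters' processing notes are STAR, Bowtie2, HTSeq, cutadapt and bcl2fastq 1.8.3, and the build is mm10. The choice of genes in the table, the strand setting and how multi-mapping reads were counted are not stated in the sources used here. Totals are therefore counts over the listed genes, not sequencing depths.

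CPM values were computed with TMM-scaled library sizes. Each assay was fitted on its 6 libraries with edgeR 4.0.16 in R 4.3.3 (quasi-likelihood test, filterByExpr with a minimum count of 10, Benjamini-Hochberg adjustment over all genes, threshold 0.05, 2-sided). Translational efficiency was the interaction of assay and treatment over 12 libraries. SE values come from the same fits, and SD refers to CPM of the 3 libraries in a group. Log2 CPM used a prior count of 2. Alternatives were RLE size factors, no filter, DESeq2 1.42.0, the replicate number as a block and each library left out. The fitting was tested on simulated counts.

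The members and the gene lists were chosen with earlier results of these data known. The genes named were Cpa3, Mcpt4, the measured genes of the 6 mast cell lists, up to 4 of the smallest p per other list, and the 10 most alike in pattern; genes of other lists outside that rule were chosen after their values were seen; a few genes under this rule are left unreported. Same-numbered footprint libraries of both treatments deviated together from their group means (r = 0.197 to 0.380 for 3 of 3 pairs). The footprint numbers may thus pair the samples, but the labels do not say what a number marks. The main footprint fit did not use this pairing and called 179 of 7041 genes. With the replicate number as a block, given as an alternative, 715 were called, so footprint calls depend on this choice. Gene models are from GENCODE on GRCm38 and upstream sequences from RefSeq, which had entries for Cpa3, Mcpt4 and Cma1 (3 of the 4 proteases).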

Additional observations from a re-analysis of the deposited data

How the results depend on the processing

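The log2 fold changes of Cpa3 and Mcpt4 stayed below 0 in all 10 alternatives in each assay. Over the libraries left out in turn they ran from -4.46 to -3.45 (Cpa3) and -4.74 to -3.36 (Mcpt4) in RNA, and from -5.42 to -4.03 (Cpa3) and -4.40 to -3.35 (Mcpt4) in footprints. Changes in translational efficiency were not stable in sign: with single libraries left out they ran from -1.30 to 0.059 for Cpa3, -0.52 to 0.85 for Mcpt4, -0.50 to 1.00 for Cma1 and -0.35 to 0.87 for Tpsb2. The count of genes changed in RNA was 1919, and 538 to 2214 with a library left out. In footprints it was 179, with 528 in DESeq2, 715 with the replicate block and 0 to 186 with a library left out. In translational efficiency it was 0, with 10 in DESeq2 and 0 to 1 with a library left out. Tpsb2 footprints passed in DESeq2 (adjusted p = 2.89e-04) and with the block (0.0371), and did not when a library was left out (0.0668 to 0.223); the gene entered these fits only through the vehicle group and so had to differ.

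Of the 16 genes of the mast cell lists called in RNA, 6 kept their call in all 10 alternatives and 0 reversed. In RNA, same-numbered libraries did not deviate together (r = -0.068 to 0.231, over 0.1 in 1 of 3 pairs, and not every library correlated best with its own number). The replicate block there called 1281 genes and ended the calls of Cd63, Hexa, Runx1 and Rab27b (adjusted p 0.0509 to 0.0592). Footprint and RNA libraries of 1 number correlated at 0.370 to 0.519 with AP20187 (over 0.1 in 3 of 3 pairs) and at 0.053 to 0.344 with vehicle (2 of 3 pairs), and the block left the count in translational efficiency at 0. Footprint counts of 0 to 12 per AP20187 library limit every footprint value of both proteases in that group.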

Other observations

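The lowest log2 fold changes of RNA in the table included further genes of myeloid cells, chosen here after their values were seen. Chil3 (-5.25), a chitinase-like protein of alternatively activated macrophages, Ngp (-5.19), a neutrophil granule protein, and S100a9 (-4.58), a calprotectin subunit, stood below Tpsb2 (-4.37) and Cpa3 (-4.18). S100a8, the partner subunit of S100a9, had a log2 fold change of 2.11, the opposite sign.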
